A study of Mus musculus with 8 samples.

Results

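The genes described here are the amino acid and peptide transporters of the solute carrier (Slc) superfamily, taken as every gene whose symbol belongs to families Slc1, Slc3, Slc6, Slc7, Slc15, Slc36, Slc38 or Slc43. The rule found 68 symbols among the 18193 genes measured, and 3 of them (Slc36a1os, Slc6a19os and Slc7a6os) name transcripts of the opposite strand, which leaves 65 transporter genes. They were measured with Affymetrix arrays in GFP-positive cells sorted from kidneys of male FSP1-eGFP mice on a C57BL/6 background, 6 months old. The ischemic group held 5 kidneys collected 3 days after the artery and vein of the left kidney had been clamped for 45 minutes. The normal group held 3 kidneys without ischemia, named sham in another label, and carried the same transgene. In these mice GFP follows the promoter of FSP1 (S100a4), which is known to be active in fibroblasts and in some leukocytes, so the sort takes whatever cells carry that signal. The comparison asks how the sorted cells of an acutely injured kidney differ from those of an uninjured one.

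Amino acids filtered by the glomerulus are taken back almost completely in the proximal tubule, by sodium-coupled carriers and exchangers in the brush border and by other exchangers in the basolateral membrane. Several carriers work only with a partner: the Slc7 light chains need a heavy chain, Slc3a1 in the brush border or Slc3a2 in most other cells, and Slc6a19 needs the membrane protein collectrin (Cltrn) in the kidney. Other members of the same families serve cells in general, carry neurotransmitters in nerve endings, or sit in lysosomes, where some report amino acid supply to the growth kinase mTORC1.

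Some facts of the arrays bear on what follows. S100a4 was bright in every array, between 11.30 and 12.22 on the log2(intensity + 16) scale used throughout. On that scale the median over genes was 5.93, and 32 of the 68 members reached it. How bright a signal is depends on the probe set as well as on the transcript, so signals do not rank the abundance of different genes. Although every mouse is labelled male, Xist, the RNA of the inactive X chromosome, read 11.21 in ischemic 1, 9.39 in ischemic 2 and 11.01 in normal 1, against 4.49 to 4.96 in the other 5 arrays. The Y-linked gene Eif2s3y was at 5.84 in ischemic 1 and at 5.84 in normal 1, and between 7.68 and 8.87 elsewhere, ischemic 2 included. Its dimmer probe set split less clearly, at 5.76 and 6.29 in those arrays and 6.55 to 8.11 elsewhere. Probe sets of Kdm5d, also Y-linked, disagreed. The brightest was lowest in those arrays, at 6.86 and 6.35, but another was highest in ischemic 1, at 8.53. For the members described in full, values without the 3 arrays with Xist signal are given where they differ from the reported ones by over 1.5 times. Ischemic 1 was also the array least like the rest: its correlations with them had a median of 0.753, where the other 7 arrays had 0.85 to 0.913. It gave the highest of the 8 values in 30.8% of the 65 transporters, and in 25.1% of all genes.

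No member passed limma with Benjamini-Hochberg adjustment over all genes, where 0 of 18193 genes (0%) passed and the lowest adjusted p of any member was 0.122. At an unadjusted p under 0.05, 11 of the 68 members were lower in the ischemic arrays (16.2%, against 5.02% of all genes) and 3 were higher (4.41%, against 2.11% of all genes). Groups did not overlap in 8 members on the lower side (11.8%, against 3.44% of all genes) and 2 on the higher side (2.94%, against 1.89% of all genes). The median difference, ischemic minus normal, was -0.03 over the members and 0.04 over all genes, so the lower values came from a part of the families and not from all of them. The count of 11 was 6 without normal 1 and 6 without normal 2. The count of 3 was 0 without normal 1, 1 without normal 2 and 1 without ischemic 4. No difference below passed in this fit, so all are given as values, and the number of arrays limits their precision.

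**Figure D1:**
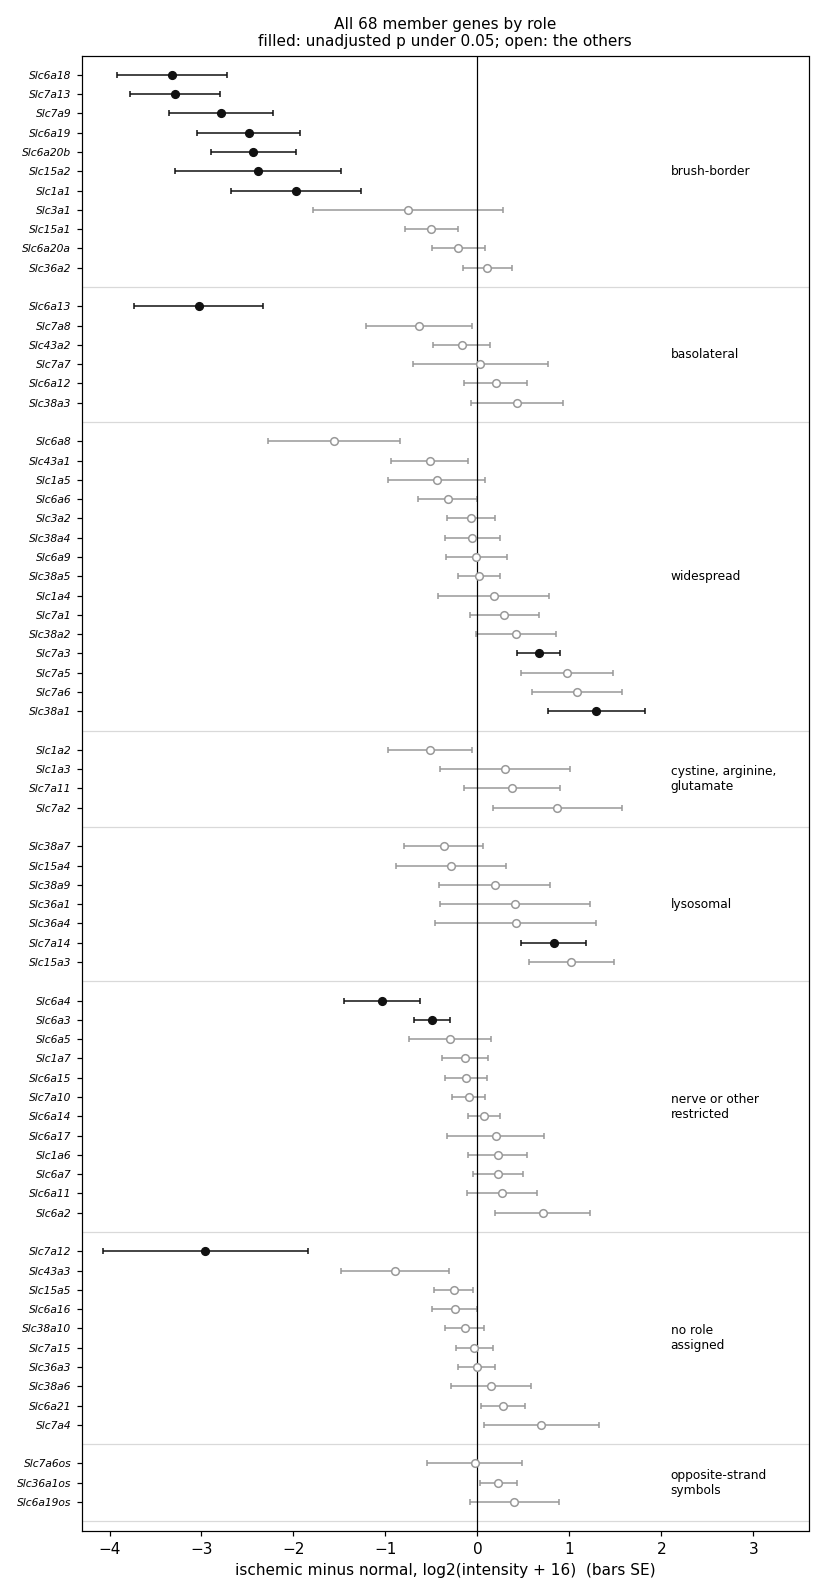
Difference between ischemic and normal arrays for each of the 68 member genes on the log2(intensity + 16) scale, grouped by role, with bars for the limma standard error (5 ischemic and 3 normal arrays). Filled points have an unadjusted p under 0.05; 7 of the 11 brush-border genes are filled and lie between -3.32 and -1.97, while the widespread, lysosomal and nerve-type genes lie mostly around 0.

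The brush-border carriers held most of the lower values. Of 11 measured, 10 had negative differences, and their median difference was -2.39. Groups did not overlap in 5, all on the lower side (45.5%, against 3.44% of all genes). At an unadjusted p under 0.05, 7 were lower (63.6%, against 5.02% of all genes). None of the 11 was higher at that threshold. The members with the largest differences reabsorb neutral amino acids, cystine and acidic amino acids.

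Slc6a18, a carrier of glycine and other neutral amino acids in mouse kidney, had the brightest signal of the group. It read 5.01, 7.63, 7.21, 6.99 and 6.55 in ischemic arrays 1 to 5, against 10.83, 9.80 and 9.36 in normal arrays 1 to 3. Every ischemic array lay below every normal one, and the lowest was ischemic 1. The difference was -3.32 ± 0.60 (SE, n = 5 and 3; limma adjusted p = 0.140), which is 9.99 times on the linear scale of intensity + 16.

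Slc6a19 is the main sodium-coupled carrier of neutral amino acids, and in people its loss causes Hartnup disorder. Its values were 5.60, 4.28, 5.74, 4.39 and 4.58 in ischemic arrays 1 to 5 and 8.24, 7.87 and 6.11 in normal arrays 1 to 3. The groups were apart by a small gap, since normal 3 lay close above ischemic 3. The difference was -2.49 ± 0.56 (SE; limma adjusted p = 0.189), and a second, dimmer probe set of the gene gave -1.12. In RefSeq the gene directly neighbours Slc6a18 on chromosome 13.

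Slc6a20b belongs to a small group of proline carriers for which the mouse has a neighbouring pair of genes on chromosome 9. It stayed between 4.81 and 5.13 in the ischemic arrays (4.83, 4.85, 5.13, 4.81 and 4.81), against 8.65, 7.0 and 6.32 in normal arrays 1 to 3. The ischemic arrays thus sat near the dim end of the scale while the normal ones were spread out (-2.44 ± 0.46, SE; limma adjusted p = 0.149). Its neighbour Slc6a20a was dim in both groups, with 4.51 to 5.65 in ischemic and 4.88 to 5.20 in normal arrays, and differed by -0.21 ± 0.29.

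Cystine and dibasic amino acids enter through Slc7a9, whose loss in people causes cystinuria together with that of its heavy chain Slc3a1. Slc7a9 read 4.98, 4.76, 6.35, 5.03 and 5.14 in ischemic arrays 1 to 5, against 8.87, 8.64 and 6.60 in normal arrays 1 to 3. Ischemic 3 and normal 3 came near each other, and the other 6 arrays were far apart. The difference was -2.79 ± 0.57 (SE; limma adjusted p = 0.156).

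Slc7a13, which carries aspartate, glutamate and cystine in the last part of the proximal tubule and also pairs with Slc3a1, gave the lowest p of all members. Its values were 4.34, 5.38, 6.19, 4.09 and 5.76 in ischemic arrays 1 to 5 and 8.34, 8.35 and 8.62 in normal arrays 1 to 3. Of the 11 lower members it had the closest normal arrays, with an SD of 0.16 (n = 3) against 0.90 (n = 5) in the ischemic arrays. The difference was -3.29 ± 0.49 (SE; limma adjusted p = 0.122). A dimmer probe set of the gene did not show it, at -0.47, with its highest value, 7.80, in ischemic 1, and the mean of both gave -1.88.

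In the probe sets used, the heavy chain Slc3a1 differed from its light chains in ischemic 1. It read 10.51 in ischemic 1 and 6.96, 6.39, 5.90 and 6.16 in ischemic arrays 2 to 5, against 8.91, 8.08 and 6.83 in normal arrays 1 to 3. Ischemic 1 was the highest of all 8 arrays, and the groups overlapped (-0.75 ± 1.04, SE; limma adjusted p = 0.955). The difference was -1.59 without ischemic 1, -1.31 without normal 3, -0.50 without ischemic 5, -0.43 without ischemic 4, -0.27 without normal 1 and -1.30 without the 3 arrays with Xist signal. In ischemic 1 both light chains were low in the probe sets used, at 4.98 for Slc7a9 and 4.34 for Slc7a13. The dimmer probe set of Slc7a13 was instead highest in that array, at 7.80.

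Slc1a1, the high-affinity glutamate carrier of the brush border, read 4.43, 7.48, 5.76, 4.68 and 5.06 in ischemic arrays 1 to 5, against 8.22, 7.59 and 6.56 in normal arrays 1 to 3. Ischemic 2 was above normal 3, so the groups overlapped in this probe set. The difference was -1.97 ± 0.70 (SE; limma adjusted p = 0.526), and its 3 probe sets ran from -2.76 to -1.97. The one at -2.76, slightly dimmer, had groups apart, with 4.43 to 5.71 in ischemic and 7.47 to 8.37 in normal arrays. In the dimmest, ischemic 2 (6.45) was again above normal 3 (5.63). Slc36a2, a proton-coupled carrier of glycine and proline, was dim throughout, with 5.08, 4.96, 4.68, 5.10 and 4.30 in ischemic and 4.75, 5.02 and 4.39 in normal arrays (0.11 ± 0.26), and was at -0.00766 without the 3 arrays with Xist signal.

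Di- and tripeptides are taken up by Slc15a2, of high affinity, and Slc15a1, of low affinity. Slc15a2 read 8.27, 6.65, 5.87, 4.22 and 5.30 in ischemic arrays 1 to 5, against 9.20, 9.15 and 7.0 in normal arrays 1 to 3. Ischemic 1 lay above normal 3, and the difference was -2.39 ± 0.90 (SE; limma adjusted p = 0.582), with 3 probe sets between -2.39 and -1.31. In the dimmer ones normal 1 stood far above the rest. They read 8.32, 5.09 and 5.76 in normal arrays against 4.82 to 5.34 in ischemic, and 8.25, 4.51 and 4.52 against 4.21 to 4.67. Slc15a1 was dim, at 4.11 to 5.16 in ischemic and 4.72 to 5.22 in normal arrays, and differed by -0.50 ± 0.28.

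**Figure D2:**
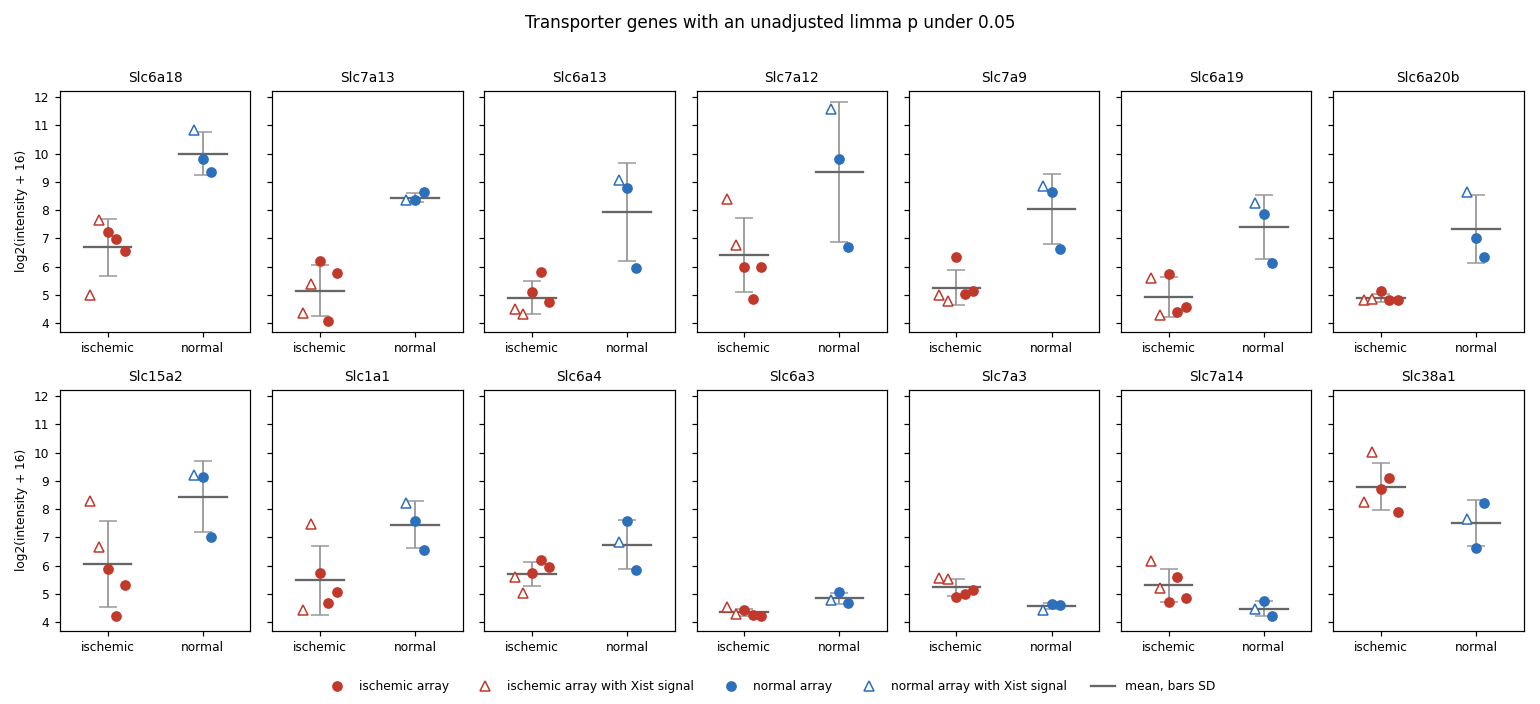
Level of the 14 members with an unadjusted limma p under 0.05, as log2(intensity + 16), in each ischemic (left) and normal (right) array, with the group mean and SD and triangles for the 3 arrays with Xist signal. In 10 of the 11 genes that are lower in ischemic arrays, normal 3 is the lowest of the normal arrays, and Slc7a3, Slc7a14 and Slc38a1 are the 3 higher in ischemic arrays.

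Among the normal arrays, normal 3 was the lowest in 10 of the 11 members with lower ischemic values, the exception being Slc7a13. Without normal 3, Slc6a13, Slc6a19, Slc6a20b and Slc7a9 had limma adjusted p values from 0.0274 to 0.0453, with differences of -4.03, -3.13, -2.94 and -3.50. Since normal 3 was the low array in these same members, those p-values are no separate support. In that fit 113 of all genes passed. Among the 5 arrays without Xist signal, differences of the 7 brush-border genes ran from -3.14 for Slc7a13 to -1.74 for Slc6a20b, over 3 ischemic and 2 normal arrays. Among the 3 arrays with Xist signal, 2 ischemic and 1 normal, they ran from -4.51 for Slc6a18 to -1.73 for Slc15a2. The direction was the same in both sets of arrays for each of the 7. Some sizes depended on the scale: with a pseudocount of 64 in place of 16, Slc6a19 was at -1.50, Slc6a20b at -1.48, Slc1a1 at -1.20 and Slc7a13 at -2.19.

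Markers of the proximal tubule were also lower in the ischemic arrays. All 15 markers of that segment, none of them a member, had negative differences, with a median of -3.09. At an unadjusted p under 0.05, 14 were lower (93.3%, against 5.02% of all genes), and 12 had groups apart (80%, against 3.44%). Their summed intensity ranged from 3063 to 5171 in ischemic and from 12088 to 29546 in normal arrays, and none was below 5 on the log2 scale in all arrays of a group. The 11 brush-border carriers summed to 1872, 642, 484, 231 and 270.3 in ischemic arrays 1 to 5, against 4603, 2938 and 1536 in normal arrays 1 to 3. The proximal tubule markers summed to 3063, 5121, 4151, 4345 and 5171 in ischemic arrays 1 to 5, against 29546, 21514 and 12088 in normal arrays 1 to 3. Both sums were highest in normal 1 and lowest in normal 3 among the normal arrays. Of the ischemic arrays, ischemic 1 had the highest carrier sum and the lowest tubule sum. These sums are linear, so a single bright gene weighs heavily, and Slc3a1 read 10.51 in ischemic 1. The mean log2 values of the carriers were close in ischemic 1 to 3, at 5.71, 5.70 and 5.67. For the tubule markers the lowest mean log2 was in ischemic 4, at 6.18, against 6.46 in ischemic 1. The 8 distal nephron markers were negative as well, 6 of them with an unadjusted p under 0.05 (75%, against 5.02% of all genes). Their sums were 553 to 1303 in ischemic and 3855 to 5041 in normal arrays, and Aqp2 was below 5 in all ischemic arrays. The part of tubule cells or tubule RNA in the sorted material in these differences was not tested, and in such bulk samples fewer cells of a type and less RNA per cell cannot be told apart.

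**Figure D3:**
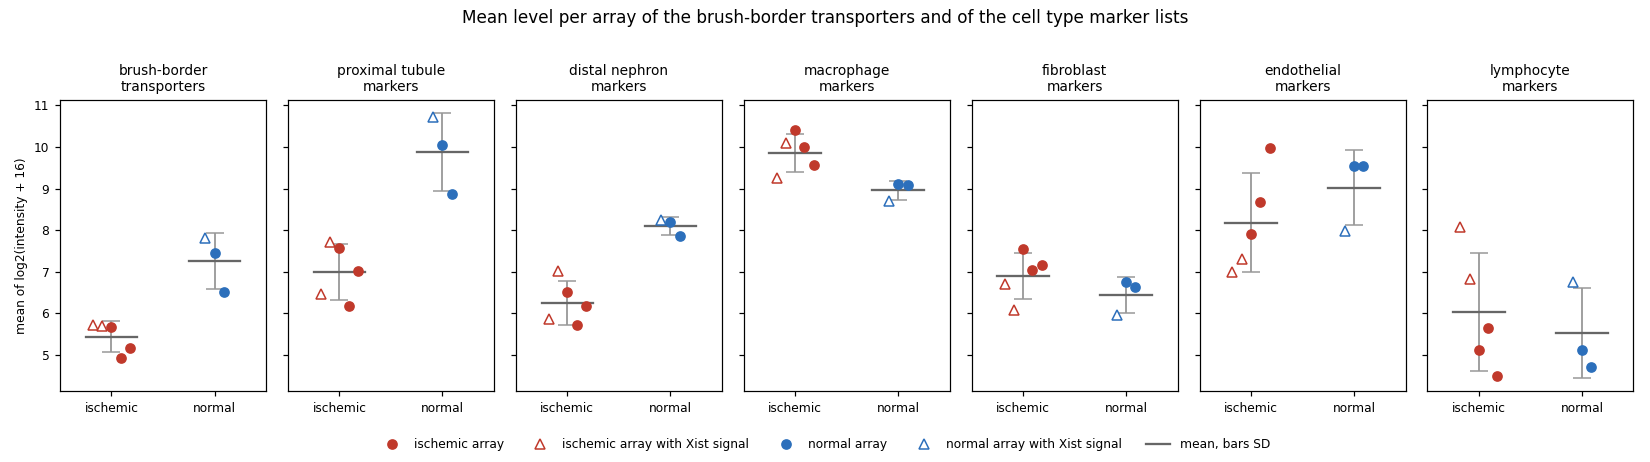
Mean log2(intensity + 16) per array of the 11 brush-border transporters and of 6 lists of cell type markers (15 proximal tubule, 8 distal nephron, 14 macrophage, 10 fibroblast, 6 endothelial and 5 lymphocyte genes), ischemic arrays left and normal arrays right, with group mean and SD. Ischemic arrays of the brush-border list lie between 4.91 and 5.71 and normal arrays between 6.50 and 7.81; the proximal tubule list splits the same way and the macrophage list the opposite way.

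The other cell types were represented too. All 14 macrophage markers reached the median signal over genes and had positive differences, 6 of them with an unadjusted p under 0.05 (42.9%, against 2.11% of all genes). They summed to 17736 to 28623 in ischemic and 11662 to 15825 in normal arrays. Of the 10 fibroblast markers 6 reached the median signal and 0 had an unadjusted p under 0.05, while Lum stayed below 5 in every array. Endothelial markers summed to 945 to 6332 in ischemic and 1531 to 4991 in normal arrays. Lymphocyte markers summed to 33.6 to 2192 in ischemic and 57.3 to 829 in normal arrays, with Nkg7 below 5 throughout. The part of these cells in the transporter values was not tested.

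Partners and regulators of the brush-border carriers were taken from lists, and 4 of 5 partners and 3 of 5 regulators were measured. Collectrin (Cltrn), which brings Slc6a19 to the membrane, read 6.33, 8.34, 8.87, 5.56 and 8.02 in ischemic arrays 1 to 5, against 11.17, 11.20 and 10.24 in normal arrays 1 to 3 (-3.45 ± 0.75, SE; limma adjusted p = 0.179). Pdzk1, a scaffold that binds brush-border carriers, differed by -3.41 ± 0.71 (limma adjusted p = 0.159), and the groups were apart in both genes. Hnf4a, a transcription factor of proximal tubule cells, differed by -2.93 ± 0.59 (limma adjusted p = 0.150), with 5.27 to 7.52 in ischemic and 8.59 to 10.52 in normal arrays. Anpep, the brush-border aminopeptidase that associates with Slc6a19 in intestine, differed by -0.39 ± 0.49. On the basolateral side Slc16a10, a carrier of aromatic amino acids, ran the other way, with 6.82 to 8.87 in ischemic and 6.13 to 7.20 in normal arrays (1.32 ± 0.48; limma adjusted p = 0.554).

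Promoter sequences of 50 of the 68 members were found in RefSeq (GRCm38.p6), as 71 windows of 300 bases that lie mostly upstream of a transcript start and end shortly after it. The letters GTTAAT, a core of sites for HNF1 factors, CAAAGTCCA, a site form of HNF4 factors, and TGATGNAAT, a site form of ATF4, were looked for on both strands, and none of the 3 overlaps another here. GTTAAT was in 7 of the 71 member windows (9.86%) and in 7.10% of all 32851 windows. CAAAGTCCA was in 1 member window (1.41%, against 0.475% of all) and TGATGNAAT in 1 (1.41%, against 0.965% of all). Among the 11 windows of the 8 matched members that were lower at an unadjusted p under 0.05, 1 held GTTAAT, that of Slc6a13, and none held the other letters. The windows of the cystine pair Slc3a1 and Slc7a9, of Slc6a19 and of Slc6a13 are printed because they carry the contrasts described: a heavy chain and its light chain that differed in ischemic 1, and a brush-border and a basolateral carrier with large differences. Capitals mark a match on either strand, and those of Slc7a9 and Slc6a19 hold none.
Slc3a1 (chr17:85028097-85028396, plus strand): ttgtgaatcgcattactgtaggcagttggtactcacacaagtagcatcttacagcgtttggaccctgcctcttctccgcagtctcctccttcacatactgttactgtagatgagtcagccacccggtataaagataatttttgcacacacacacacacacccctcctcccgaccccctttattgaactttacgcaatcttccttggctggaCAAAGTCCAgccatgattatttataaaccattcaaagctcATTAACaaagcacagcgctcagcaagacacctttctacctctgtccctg
Slc7a9 (chr7:35448842-35449141, plus strand): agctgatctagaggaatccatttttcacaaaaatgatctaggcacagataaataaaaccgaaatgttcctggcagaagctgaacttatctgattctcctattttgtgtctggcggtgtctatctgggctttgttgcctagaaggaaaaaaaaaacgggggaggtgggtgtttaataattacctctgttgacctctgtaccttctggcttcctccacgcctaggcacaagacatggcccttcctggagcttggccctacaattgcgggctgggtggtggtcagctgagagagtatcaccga
Slc6a19 (chr13:73692587-73692886, minus strand): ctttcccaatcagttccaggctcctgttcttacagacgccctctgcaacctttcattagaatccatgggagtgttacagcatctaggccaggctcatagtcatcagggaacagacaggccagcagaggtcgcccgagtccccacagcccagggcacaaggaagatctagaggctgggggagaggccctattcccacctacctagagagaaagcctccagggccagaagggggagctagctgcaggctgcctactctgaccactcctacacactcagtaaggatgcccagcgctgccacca
Slc6a13 (chr6:121300490-121300789, plus strand): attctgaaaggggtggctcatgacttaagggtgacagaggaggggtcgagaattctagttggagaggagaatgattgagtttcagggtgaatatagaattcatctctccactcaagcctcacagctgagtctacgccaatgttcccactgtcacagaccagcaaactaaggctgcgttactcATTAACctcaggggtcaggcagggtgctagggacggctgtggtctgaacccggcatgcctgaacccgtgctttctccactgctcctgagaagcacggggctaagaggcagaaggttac

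The basolateral carriers did not share a direction. Of 6 measured, 3 had negative and 3 had positive differences, and the median difference was -0.07. At an unadjusted p under 0.05, 1 was lower (16.7%, against 5.02% of all genes) and 0 were higher (against 2.11%). The 1 lower member was Slc6a13, a carrier of GABA, taurine and betaine in the basolateral membrane of proximal tubule cells. Its values were 4.49, 4.32, 5.12, 5.82 and 4.75 in ischemic arrays 1 to 5 and 9.07, 8.78 and 5.94 in normal arrays 1 to 3. Normal 1 and normal 2 were far above the rest, normal 3 just above ischemic 4, and the difference was -3.03 ± 0.70 (SE; limma adjusted p = 0.197), or -1.99 with a pseudocount of 64. Its direct neighbour on chromosome 6, the betaine carrier Slc6a12 of the renal medulla, was dim, at 4.82 to 6.22 in ischemic and 4.86 to 5.28 in normal arrays, and differed by 0.20 ± 0.35.

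Slc43a2, a facilitative carrier of large neutral amino acids, had the brightest basolateral signal. It read 10.18, 10.34, 11.05, 10.59 and 10.04 in ischemic arrays 1 to 5 and 10.44, 11.13 and 10.26 in normal arrays 1 to 3, so the groups lay over each other (-0.17 ± 0.31). Its dimmer probe sets gave 0.69 and 0.39, so the direction depended on the probe set. Slc7a7, an exchanger of dibasic for neutral amino acids that is also found in macrophages, spread widely, from 6.13 to 9.46 in ischemic and from 7.44 to 8.91 in normal arrays (0.03 ± 0.73). A dimmer probe set of Slc7a7 gave -0.77. Slc7a8, a light chain for neutral amino acids, differed by -0.64 ± 0.58, and Slc38a3, which takes up glutamine for ammonia formation, by 0.43 ± 0.50. In Slc38a3 ischemic 1 was highest, at 7.25, the other ischemic arrays read 5.78, 5.24, 5.97 and 4.89, and normal arrays 1 to 3 read 5.71, 5.50 and 4.99. The difference was 0.07 without ischemic 1, 0.66 without ischemic 5, 0.22 without normal 3 and 0.12 without the 3 arrays with Xist signal.

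Carriers that supply cells in general were mixed in direction. Of 15 measured, 8 had positive and 7 negative differences, and the median was 0.02. At an unadjusted p under 0.05, 2 were higher (13.3%, against 2.11% of all genes) and 0 were lower (against 5.02%). Slc38a1, a sodium-coupled glutamine carrier, read 8.27, 10.02, 8.72, 9.09 and 7.91 in ischemic arrays 1 to 5, against 7.67, 6.62 and 8.23 in normal arrays 1 to 3. Normal 3 lay within the ischemic values, and the difference was 1.29 ± 0.53 (SE; limma adjusted p = 0.650), or 0.85 without normal 2. Slc7a3, a carrier of cationic amino acids, was dim, at 5.56, 5.54, 4.90, 4.99 and 5.15 in ischemic and 4.43, 4.65 and 4.61 in normal arrays. Its groups did not overlap (0.67 ± 0.23, SE; limma adjusted p = 0.519), yet the difference was 0.39 without the 3 arrays with Xist signal and 0.26 with a pseudocount of 64.

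Slc7a5 is the light chain for large neutral amino acids in dividing and activated cells. It read 5.06, 6.11, 7.27, 6.91 and 5.95 in ischemic arrays 1 to 5, against 4.71, 5.37 and 5.78 in normal arrays 1 to 3. Ischemic 1 fell within the normal range and the other 4 ischemic arrays lay above it (0.97 ± 0.50, SE; limma adjusted p = 0.792). A related light chain, Slc7a6, differed by 1.08 ± 0.49 (limma adjusted p = 0.724), and by 0.31 in a slightly dimmer probe set. Their common heavy chain Slc3a2 was bright and nearly level, with 8.66, 9.37, 9.28, 8.81 and 9.35 in ischemic and 8.92, 9.44 and 9.13 in normal arrays (-0.07 ± 0.26), and when 1 array was left out it ranged from -0.19 without normal 1 to 0.07 without normal 2, with -0.14 without the 3 arrays with Xist signal.

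Creatine enters cells through Slc6a8, which is grouped here by its family. It read 4.50, 5.39, 7.14, 7.09 and 7.09 in ischemic arrays 1 to 5, against 8.87, 7.37 and 7.18 in normal arrays 1 to 3. The groups were just apart, and the arrays with Xist signal held both extremes: ischemic 1 and 2 were the lowest and normal 1 the highest. The difference was -1.56 ± 0.72 (SE; limma adjusted p = 0.732), -1.03 without normal 1 and -0.17 among the 5 arrays without Xist signal, against -3.92 among the 3 with it. A second, slightly dimmer probe set gave -1.68. Among the 5 arrays without Xist signal it read 6.44, 5.82 and 6.55 in ischemic and 7.55 and 6.60 in normal arrays, so the size there depended on the probe set.

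The taurine carrier Slc6a6 had a signal above that of 99.1% of genes in both groups together. It read 10.44, 11.05, 10.91, 11.20 and 11.86 in ischemic arrays 1 to 5 and 11.41, 11.19 and 11.66 in normal arrays 1 to 3, with overlap (-0.32 ± 0.32). The difference was -0.16 without ischemic 1, -0.52 without ischemic 5, -0.21 without normal 3 and -0.10 without the 3 arrays with Xist signal. Slc38a2, a glutamine and alanine carrier that cells increase when starved of amino acids, read 9.76, 9.25, 9.66, 9.46 and 10.21 in ischemic and 8.19, 9.40 and 10.16 in normal arrays. Normal 1 was the lowest array, and the difference of 0.42 ± 0.43 was -0.11 without it, 0.87 without normal 3 and -0.00414 without the 3 arrays with Xist signal. Slc1a5, the exchanger for glutamine and other neutral amino acids, read 7.29, 7.35, 6.66, 5.38 and 6.23 in ischemic and 6.71, 7.96 and 6.41 in normal arrays (-0.44 ± 0.53). Its 2 probe sets gave opposite signs, -0.44 and 0.43, and the difference was 0.02 without normal 2, -0.14 without ischemic 4 and -0.75 without normal 3. It was -1.10 among the 5 arrays without Xist signal and 0.61 among the 3 with it. The remaining members of this group (Slc1a4, Slc7a1, Slc38a4, Slc38a5, Slc43a1 and Slc6a9) differed by -0.52 to 0.29 in their brightest probe sets. Probe sets of the same gene ran from -0.18 to 1.34 for Slc7a1, -0.83 to 0.18 for Slc1a4 and -0.01 to 0.48 for Slc6a9.

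A set of 7 pairs put a carrier of the kidney epithelium against a relative with another distribution, and asked whether the log2 difference between both within an array changed with ischemia. The arrays were reassigned to groups in all 56 ways (exact permutation test, two-sided, smallest possible p 0.0179), with Benjamini-Hochberg adjustment over the 7 pairs. No pair passed, and a single pair at the smallest p could not have: its adjusted p over 7 pairs would be 0.125. The levels of 2 probe sets cannot be set against each other, so only the change of their difference is read.

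The light chains Slc7a9 and Slc7a5 gave the largest change. Slc7a9 minus Slc7a5 was -0.08, -1.35, -0.92, -1.88 and -0.81 in ischemic arrays 1 to 5, against 4.16, 3.27 and 0.83 in normal arrays 1 to 3. Every ischemic array lay below every normal one (-3.76, exact permutation p = 0.0179, adjusted p = 0.125). For the peptide carriers, Slc15a2 minus Slc15a3 was 2.39 in ischemic 1 and -3.12 to 0.18 in the other ischemic arrays, against 0.36 to 3.90 in normal arrays (-3.41, exact permutation p = 0.0536, adjusted p = 0.156). The change was -2.16 for Slc6a19 minus Slc6a6 (exact permutation p = 0.0714, adjusted p = 0.156) and -1.53 for Slc1a1 minus Slc1a5 (exact permutation p = 0.0893, adjusted p = 0.156). For Slc1a1 minus Slc1a5 it was -0.99 without normal 1, -0.81 without the 3 arrays with Xist signal and -0.90 with a pseudocount of 64.

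The heavy chains did not separate. Slc3a1 minus Slc3a2 changed by -0.69 with overlapping groups, from -3.20 to 1.85 in ischemic and from -2.30 to -0.01 in normal arrays (exact permutation p = 0.661, adjusted p = 0.925). Ischemic 1, at 1.85, was the highest of the 8, and the value without it was -1.63. It was -1.22 without normal 3, -0.08 without normal 1 and -1.17 without the 3 arrays with Xist signal. The pairs Slc38a3 minus Slc38a2 (0.01, exact permutation p = 1) and Slc36a2 minus Slc36a1 (-0.30, exact permutation p = 0.839) differed by less than the spread between arrays.

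**Figure D4:**
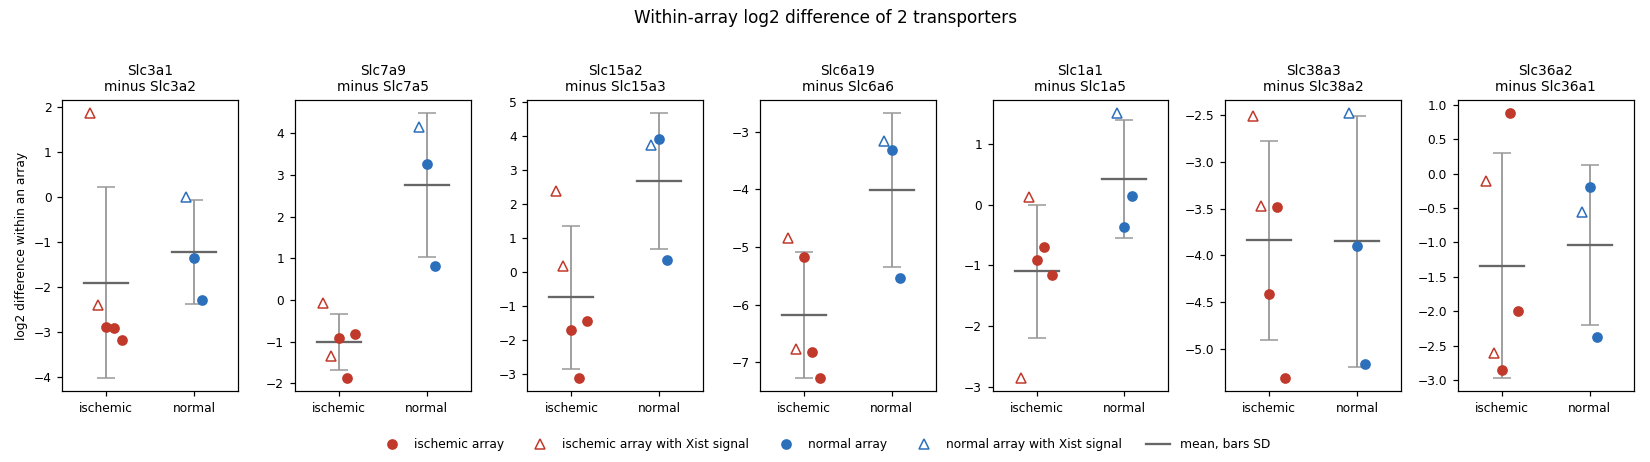
Within-array difference in log2(intensity + 16) between the 2 genes of each of 7 pairs, in ischemic (left) and normal (right) arrays, with group mean and SD and triangles for arrays with Xist signal. Slc7a9 minus Slc7a5 is the pair whose groups do not overlap, with ischemic arrays from -1.88 to -0.08 and normal arrays from 0.83 to 4.16.

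Of 7 lysosomal members, 5 had positive differences (71.4%, against 54.8% of all genes), and the median was 0.41. At an unadjusted p under 0.05, 1 was higher (14.3%, against 2.11% of all genes) and 0 were lower. Slc15a3, a lysosomal carrier of histidine and peptides in immune cells, read 5.89, 6.48, 7.57, 7.34 and 6.73 in ischemic arrays 1 to 5, against 5.45, 5.25 and 6.64 in normal arrays 1 to 3. Normal 3 fell within the ischemic values (1.02 ± 0.46, SE; limma adjusted p = 0.724). Its relative Slc15a4 differed by -0.29 ± 0.60. Slc7a14, the member with an unadjusted p under 0.05, was dim, at 6.16, 5.19, 4.71, 5.61 and 4.85 in ischemic and 4.47, 4.75 and 4.21 in normal arrays (0.83 ± 0.36; limma adjusted p = 0.689), and a second probe set gave -0.10.

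Slc38a9, which senses lysosomal arginine for mTORC1, had the brightest lysosomal signal. It read 9.82, 8.16, 6.86, 7.72 and 7.24 in ischemic arrays 1 to 5 and 7.86, 7.72 and 7.73 in normal arrays 1 to 3. In this probe set normal arrays agreed closely while ischemic 1 lay far above. The difference of 0.19 ± 0.60 was -0.28 without ischemic 1, 0.46 without ischemic 3, 0.37 without ischemic 5 and -0.46 without the 3 arrays with Xist signal. The 7 probe sets of Slc38a9 ran from -0.23 to 0.50. In the second brightest, ischemic 1 was instead the lowest of all arrays, at 4.45, against 6.35 to 7.72 in the others. In dimmer ones that read 6.99 and 6.58 in ischemic 1, that array was again the highest. Slc36a1, a proton-coupled exporter of small amino acids, spread over both groups, at 5.19, 7.57, 7.52, 4.22 and 6.30 in ischemic and 5.30, 5.20 and 6.75 in normal arrays (0.41 ± 0.81). Its difference ran from 0.05 without ischemic 2 to 0.91 without normal 3, and was 0.04 without the 3 arrays with Xist signal; every array but ischemic 5, when left out, moved it by over 1.5 times. Slc36a4 differed by 0.42 ± 0.88 and Slc38a7 by -0.37 ± 0.43.

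Carriers of cystine, arginine and glutamate outside the brush border showed no common direction. Slc7a11, the cystine-glutamate exchanger that supports glutathione synthesis, differed by 0.37 ± 0.52, and Nfe2l2, a regulator of it, by 0.18 ± 0.42. Slc7a2, an arginine carrier of activated macrophages, differed by 0.87 ± 0.71, but its 4 probe sets ran from -1.09 to 0.87. The glutamate carriers Slc1a2 and Slc1a3, best known from astrocytes, differed by -0.52 ± 0.46 and 0.30 ± 0.70. Slc1a2, with the brightest signal of the 4, read 5.65, 4.75, 6.42, 6.02 and 6.64 in ischemic and 6.12, 6.04 and 7.08 in normal arrays, with overlap. Its difference was -0.23 without ischemic 2, -0.18 without normal 3 and -0.20 without the 3 arrays with Xist signal. The 5 probe sets of Slc1a2 ran from -0.52 to 0.32, so the direction depended on the probe set. None of the 4 carriers had an unadjusted p under 0.05.

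Members of nerve cells and other restricted tissues were dim, with 1 of 12 reaching the median signal over genes. That member was Slc6a4, the serotonin carrier, at 5.60, 5.05, 5.73, 6.20 and 5.97 in ischemic arrays 1 to 5 and 6.83, 7.57 and 5.84 in normal arrays 1 to 3. Normal 3 lay within the ischemic values, and the difference of -1.04 ± 0.41 (SE; limma adjusted p = 0.633) was -0.63 without normal 2. The dopamine carrier Slc6a3 read 4.52, 4.30, 4.42, 4.24 and 4.23 in ischemic and 4.78, 5.06 and 4.68 in normal arrays, apart but near the floor of the scale (-0.50 ± 0.20; limma adjusted p = 0.618). The other 10 (Slc1a6, Slc1a7, Slc6a2, Slc6a5, Slc6a7, Slc6a11, Slc6a14, Slc6a15, Slc6a17 and Slc7a10) differed by -0.30 to 0.71 in their brightest probe sets. A dimmer probe set of Slc6a17 gave -0.68.

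The 10 further transporter genes had no place in the role lists, and Slc7a12 is described because of its values. Slc7a12, a light chain of the mouse kidney reported to differ between the sexes, read 8.40, 6.76, 6.00, 4.85 and 6.00 in ischemic arrays 1 to 5, against 11.58, 9.80 and 6.69 in normal arrays 1 to 3. The normal arrays were far apart, and normal 3 lay among the ischemic ones. The difference was -2.96 ± 1.11 (SE; limma adjusted p = 0.578), -1.84 without normal 1 and -2.63 among the 5 arrays without Xist signal. Slc38a10, bright in all arrays, read 9.98, 10.28, 10.12, 10.48 and 9.88 in ischemic and 10.29, 10.38 and 10.20 in normal arrays (-0.14 ± 0.21). Its 7 probe sets ran from -0.36 to 0.50. The other 8 (Slc6a16, Slc6a21, Slc7a4, Slc7a15, Slc15a5, Slc36a3, Slc38a6 and Slc43a3) differed by -0.90 to 0.69, the lowest being Slc43a3, a carrier of nucleobases. The opposite-strand transcripts differed by -0.03 to 0.40 in their brightest probe sets. That with the brightest signal, Slc7a6os, read 6.32, 7.42, 8.41, 8.60 and 8.39 in ischemic and 7.72, 8.03 and 7.82 in normal arrays. Its difference was 0.54 without the 3 arrays with Xist signal, and its dimmer probe set gave 0.88.

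Genes that answer to amino acid supply were counted in the same way. Of 15 measured genes of the amino acid response, 2 were lower at an unadjusted p under 0.05 (13.3%, against 5.02% of all genes) and 0 were higher, with a median of -0.02. Sesn2, a leucine sensor, read 5.20, 6.02, 6.76, 6.58 and 5.94 in ischemic arrays 1 to 5, against 8.14, 9.76 and 6.65 in normal arrays 1 to 3 (-2.08 ± 0.65, SE; limma adjusted p = 0.403). Cth, which makes cysteine from cystathionine, differed by -1.40 ± 0.37 (limma adjusted p = 0.267), and Atf4, the transcription factor of the response, by -0.02 ± 0.27. Of 18 measured genes of mTORC1 amino acid sensing, 1 was lower (5.56%, near the 5.02% of all genes) and 0 were higher, with a median of -0.01. That gene was Rragd, a GTPase of the lysosomal complex, with 4.91 to 6.72 in ischemic and 7.04 to 8.38 in normal arrays (-2.21 ± 0.49; limma adjusted p = 0.183).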

How the data were processed

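GFP-positive cells were sorted from digested kidneys, and their RNA was amplified and hybridised to Affymetrix arrays, per the labels' protocols. The values, as deposited, are linear intensities of probe sets, in 1 table of 8 arrays; how they were summarised, background-corrected and scaled is not stated in the labels or headers. Nothing beyond the labels says whether kidneys were processed apart, so p-values measure the spread between these arrays.

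The scale was log2(value + 16), which understates changes of dim genes, and 45101 probe sets less 64 controls were quantile normalized. The series' annotation gives 34945 probe sets 1 symbol, 932 several, and leaves 9160 unnamed here. A gene was its 1-symbol probe set with the highest mean, giving 18193 genes, and probe sets of a gene can disagree. Groups (5 ischemic, 3 normal) came from the titles and were compared with limma 3.58.1 in R 4.3.3, checked on simulated data, and p-values were adjusted by Benjamini-Hochberg over all genes (threshold 0.05). The fit did not pair same-numbered arrays, whose deviations over all genes correlated at 0.160, -0.0877 and 0.101. Low correlations cannot exclude a pairing. In its brighter probe set Eif2s3y read 5.84, 7.78 and 8.87 in ischemic 1 to 3 and 5.84, 7.83 and 8.71 in normal 1 to 3. The dimmer probe set did not match in this way, with 5.76, 7.77 and 7.03 against 6.29, 6.55 and 7.35. Xist differed between ischemic 2 and normal 2, at 9.39 and 4.70. Figures used matplotlib 3.10.9 in Python 3.11.15.

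Members with an unadjusted p under 0.05, groups apart and bright, in a pair, or brightest of their role are given with all values. Members and lists were chosen with earlier results of these data known, and Slc7a12 and the Xist arrays were singled out after their values were seen. Alternatives were the replicate block, median or ribosomal centring, pseudocounts of 1 and 64, a brightness filter, other probe set rules, trend, array weights and leaving out arrays.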

Additional observations from a re-analysis of the deposited data

Results flagged for a closer look

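In 13 of the 68 members 1 ischemic array lay far from the other 4, by the ratio of its gap to the whole ischemic range, where Dixon's critical value for 5 arrays is 0.71. Chance gives such a ratio in about 1 of 20 groups. The share was 19.1% of the members and 11.5% of all 18193 genes, and the cause was not tested. In 8 of the 13 (61.5%) the distant array was ischemic 1, as the highest, which was also so in 54% of all genes past that value. These were Slc3a1 (0.770), Slc15a1 (0.785), Slc6a11 (0.728), Slc1a6 (0.839), Slc6a5 (0.872), Slc6a19os (0.817), Slc38a4 (0.746) and Slc38a5 (0.853). Ischemic 3 was the highest for Slc6a20b (0.861) and Slc7a9 (0.763), so that the other 4 ischemic arrays lay further below the normal ones. Ischemic 2 was the highest for Slc6a20a (0.735) and Slc7a10 (0.772) and the lowest for the arginine carrier Slc7a2 (0.750). The ratio does not measure the size of a gap, which was small in some dim genes. All ischemic arrays lay between 4.09 and 4.24 for Slc7a10, near the floor of the scale, and between 4.81 and 5.13 for Slc6a20b.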

How the results depend on the processing

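Groups of 5 and 3 arrays and dim signals limit these results, and causes of the changes below were not tested. Genes passing an adjusted p of 0.05, 0 in the analysis reported, numbered 155 (1 higher, 154 lower) with arrays centred on 48 ribosomal protein genes, 1 with a pseudocount of 1, 15 among genes above the 40th percentile, 2 with the mean of all probe sets, 31 with a trended prior, 5 with array weights, 1 with Xist signal as a block, and 0 to 113 when 1 array was left out, the highest without normal 3. Members among them had adjusted p values of 0.0261 (Slc7a13), 0.0312 (Slc6a18), 0.0373 (Slc6a20b) and 0.0447 (Slc7a9) with ribosomal centring, 0.0423 (Slc7a13) with the filter, and 0.0425 (Slc6a18) and 0.0446 (Slc7a13) with the trend. Ribosomal centring moved the median of all genes to -0.138, against 0.041, and the shares of genes lower and higher at an unadjusted p under 0.05 to 8.67% and 0.671%, against 5.02% and 2.11%; median centring gave 5.56% and 1.29%.

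The count of 3 higher members was 1 with the replicate block, 0 with ribosomal centring, 1 with the filter, 6 with the Xist block and 0 to 4 when 1 array was left out, and that of 11 lower members was 6 to 13 when 1 array was left out. The members' median was -0.221 with ribosomal centring, -0.171 with the filter, and -0.106 to 0.0556 when 1 array was left out. The replicate block gave 1406 genes with an unadjusted p under 0.05, against 1297, and 8 lower members, against 11. It reversed Slc1a5 (0.0742), Slc3a1 (0.0172) and the pair Slc3a1 minus Slc3a2 (0.0774).

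Other reversals were of small differences. Ribosomal centring put Slc38a9 at -0.118. A pseudocount of 64 put Slc7a6os at 0.0158 and the pair Slc38a3 minus Slc38a2 at -0.115. The mean of probe sets put Slc1a2 at 0.0405, Slc38a10 at 0.0454, Slc43a2 at 0.302, Slc7a6os at 0.428 and the same pair at -0.0437. Array weights put Slc38a9 at -0.350, Slc3a2 at 0.0579 and Slc7a6os at 0.345. Without the 3 arrays with Xist signal, a choice made after seeing the data, Slc36a2 was at -0.00766, Slc38a2 at -0.00414, Slc38a9 at -0.455 and Slc7a6os at 0.542, and with that signal as a block Slc7a6os was at 0.0443 and the pair Slc38a3 minus Slc38a2 at -0.101. With 1 array left out, ranges that crossed 0 were -0.650 to 0.693 (Slc38a3 minus Slc38a2), -0.965 to 0.125 (Slc36a2 minus Slc36a1), -0.753 to 0.0243 (Slc1a5), -0.0582 to 0.256 (Slc36a2), -0.112 to 0.873 (Slc38a2), -0.278 to 0.461 (Slc38a9), -0.190 to 0.0701 (Slc3a2), -0.346 to 0.0888 (Slc43a2) and -0.223 to 0.348 (Slc7a6os).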
